A study of Mus musculus with 10 samples.

Results

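The 9 antigen receptor response genes described here are Nr4a1, Nr4a3, Egr2, Egr3, Cd69, Cd5, Nfkbid, Tnfaip3 and Myc. They were found by symbol among the 14738 genes of the deposited table, and all 9 were present and passed the filter on low values. When the T cell receptor binds its ligand, calcium, ERK and NF-kB signalling switch on transcription within a short time. Nr4a and Egr transcription factors, Myc and the surface protein Cd69 are among the earliest products, while Cd5, Tnfaip3 and several phosphatases restrain the signal. In regulatory T (Treg) cells, which recognise self-antigens, many of these transcripts are present without deliberate stimulation, and Nr4a1 and Cd5 are widely used as gauges of signal strength.

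RNA was sequenced from spleen Treg cells of mixed bone marrow chimeras, that is mice whose blood system came from a 1:1 mixture of CD45.1+ marrow and marrow of the tested genotype. The tested marrow was Foxp3Cre (WT, 5 libraries) or Foxp3CreFlcnfl/fl (Flcn KO, 5 libraries), and the sort took CD45.2+CD45.1-CD4+Foxp3-YFP+ cells. The controls therefore carried Cre as well, and in both groups Cre was driven from Foxp3. The design text calls the 5 libraries of a group biological replicates, and age, sex and treatment of the hosts were not given in the sources used here. Flcn encodes folliculin, a regulator of Rag GTPases at the lysosome. Its own transcript did not serve as a check of the labels: it was at 45.6 to 78.0 normalized counts in the WT and 124 to 158 in the libraries labelled Flcn KO, and values per gene do not show the deleted part. Every direction below rests on the labels.

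Values are normalized counts, reads per gene divided by a size factor for each library. The libraries held 1914516 to 4153854 reads on genes. Foxp3 was at 1210 to 1384 normalized counts in the WT and 1056 to 1331 in the Flcn KO, and all 6 Treg markers were present. Mitochondrial rRNA took 24.7 to 31.8% of reads in 9 libraries and 44.1% in WT replicate 1, and the members' values without it are given below. In bulk RNA, fewer cells expressing a gene and less RNA per cell cannot be told apart.

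The DNA just upstream of 3 members is shown because Nr4a1 and Egr2 are classical immediate early genes and Cd5 is the member whose groups did not overlap. The sequences are the 250 bases before a RefSeq transcript start in GRCm38.p6, written 5′ to 3′ on the gene's strand, from chr15:101266596-101266845 (Nr4a1, plus strand), chr10:67537619-67537868 (Egr2, plus strand) and chr19:10738975-10739224 (Cd5, minus strand). Capitals mark the core of the cAMP response element (TGACG or its reverse complement), the Egr site (GCGNGGGCG) and the CArG box bound by serum response factor.
Nr4a1: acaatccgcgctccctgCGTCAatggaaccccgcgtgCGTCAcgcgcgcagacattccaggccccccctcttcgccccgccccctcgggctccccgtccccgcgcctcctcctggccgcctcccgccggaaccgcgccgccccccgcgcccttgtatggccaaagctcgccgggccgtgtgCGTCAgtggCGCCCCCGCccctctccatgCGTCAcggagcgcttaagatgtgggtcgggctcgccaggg
Egr2: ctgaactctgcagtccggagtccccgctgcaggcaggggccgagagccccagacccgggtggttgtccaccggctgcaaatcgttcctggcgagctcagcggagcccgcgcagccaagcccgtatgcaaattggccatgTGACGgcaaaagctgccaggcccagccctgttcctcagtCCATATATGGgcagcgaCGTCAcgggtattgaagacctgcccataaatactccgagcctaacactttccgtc
Cd5: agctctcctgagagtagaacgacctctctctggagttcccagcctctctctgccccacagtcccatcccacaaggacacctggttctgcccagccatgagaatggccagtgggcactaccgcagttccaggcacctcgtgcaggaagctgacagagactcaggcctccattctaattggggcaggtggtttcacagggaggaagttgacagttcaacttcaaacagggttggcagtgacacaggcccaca
Counting back from the base before the start, which is -1, Nr4a1 had cores that began at -233, -213, -69 and -40 and an Egr site at -60. Egr2 had a CArG box at -72 with cores on either side of it, at -111 and -55. The Cd5 stretch held none of these motifs, which says only that these letters are not in this window.

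RefSeq windows of 300 bases, from 250 before to 50 after a start, were at hand for 6 of the 9 members, in 13 windows. Motifs were searched on both strands. The core TGACG lies within the full element TGACGTCA, so the 2 searches overlap. A core was found in at least 1 window of 5 members (Nr4a1, Nr4a3, Egr2, Nfkbid and Tnfaip3), against 20.8% of all 32851 windows, and members with several windows had more chances to hold one. The full element was found for Nfkbid, against 1.79% of windows. The kappaB site, the motif of NF-kB, was found for Nr4a1, Nfkbid and Tnfaip3, against 4.51%. The Egr site was found for Nr4a1 against 5.55%, the CArG box for Egr2 against 1.63%, and the NFAT core GGAAAA for Egr2 and Nfkbid against 23.4%. The E-box CACGTG bound by Myc and its partners was found for Egr2 and Tnfaip3, against 7.15%. The TATA box letters TATAAA were found for Tnfaip3, beginning at -225, against 13.6%. A match describes the letters of a window and is not evidence of binding.

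Levels were compared between members only per length, as normalized counts per kilobase of the longest protein-coding GENCODE transcript. Cd69 was the most abundant in the WT, at 454 ± 60.6 (SD, n = 5), followed by Cd5 at 206 ± 9.35, Tnfaip3 at 164 ± 24.8 and Myc at 117 ± 31.4. Nr4a1 was at 74.0 ± 8.88, Nfkbid at 48.6 ± 5.50, Egr2 at 41.5 ± 5.93 and Nr4a3 at 28.7 ± 5.05. Egr3 stood far below the rest at 1.84 ± 0.490. Among neighbours in this order the WT libraries overlapped between Tnfaip3 and Myc and between Nfkbid and Egr2, and for the other neighbours they did not. In the Flcn KO the means of these 2 neighbouring sets exchanged places, with Myc at 160 against Tnfaip3 at 139 and Egr2 at 53.3 against Nfkbid at 45.2.

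**Figure D1:**
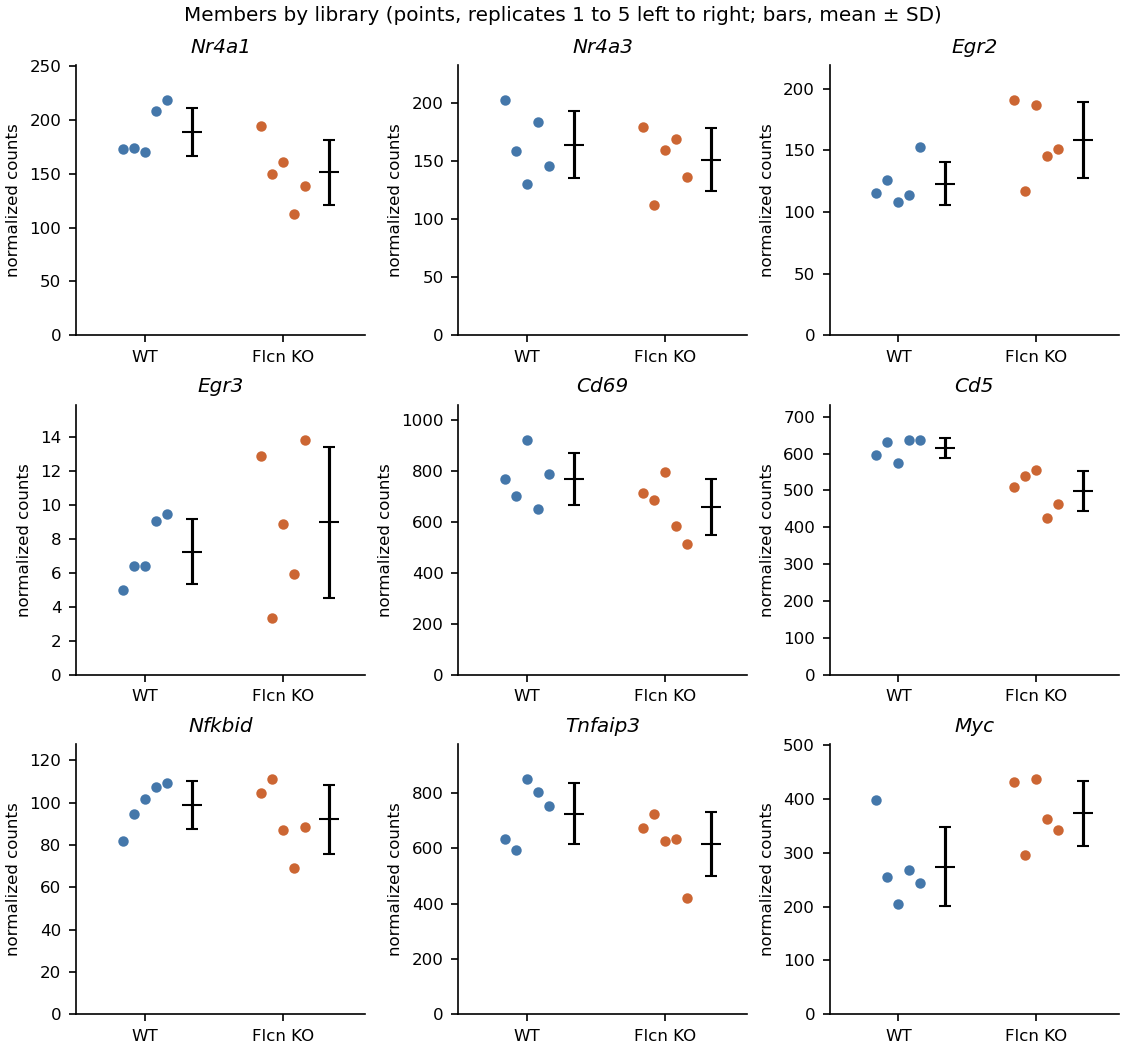
Normalized counts of the 9 members in each library (points), with the mean and SD of each group of 5 as bar and whisker. The WT and Flcn KO points overlap for 8 members, and for Cd5 every Flcn KO library lies below every WT library.

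The design has 1 comparison, Flcn KO against WT. No member passed the threshold of 0.05 in limma on log2(normalized count + 1) with Benjamini-Hochberg adjustment over 14723 genes (0 of 9), where 1.71% of all tested genes did. At an unadjusted p under 0.05 there were 2 of 9, Cd5 lower and Myc higher in the Flcn KO, where 14.0% of all genes passed. With edgeR on the recovered reads 0 of 8 tested members were called against 5.64% of genes, and 4 had an unadjusted p under 0.05, as did 17.7% of all genes in that fit. DESeq2 on the same reads called 1 member, Cd5, against 4.93% of genes, again with 4 at an unadjusted p under 0.05, where 14.8% of all genes stood. The authors' deposited table lists Cd5 alone among the 9 below an adjusted p of 0.05, a mark that 4.77% of its genes reach. It rests on the same reads, so it is no independent support. The log2 fold change was negative for 6 members and positive for 3, with a median of -0.12 beside 0.003 over all tested genes.

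Cd5 encodes a surface glycoprotein that dampens antigen receptor signalling, and its level is set in the thymus by the strength of self-recognition. It was at 597, 633, 575, 636 and 637 normalized counts in WT replicates 1 to 5 and at 510.1, 538, 555, 425 and 463 in Flcn KO replicates 1 to 5. The groups did not overlap, which was so for 1 of the 9 members and for 4.92% of all tested genes. The means were 616 ± 27.9 and 498 ± 53.8 (SD, n = 5 each), a log2 fold change of -0.31 (SE 0.12, 95% interval -0.57 to -0.05) or 0.806 times the WT level. Its adjusted p was 0.265 in limma, 0.0598 in edgeR and 0.0285 in DESeq2, and the authors' deposited table gives a log2 fold change of -0.31 with an adjusted p of 0.0234. Cd5 had the lowest spread of the members in the WT, a coefficient of variation of 4.54% where counting reads alone gives 4.09%. Among Flcn KO libraries the spread was 10.8%. Without WT replicate 1 the log2 fold change was -0.32 and the limma adjusted p 0.271.

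Cd69, the other surface member, is a lectin-like protein that retains activated lymphocytes in tissue. It was at 769, 702, 921, 650.4 and 787 normalized counts in the WT and at 711, 685, 797, 584 and 514 in the Flcn KO, so the groups overlapped and the lowest values were those of Flcn KO replicates 4 and 5. The means were 766 ± 102 and 658 ± 111, a log2 fold change of -0.23 with a 95% interval of -0.57 to 0.12 and a limma adjusted p of 0.584. Without Flcn KO replicate 5 it was -0.14, and without WT replicate 1 it was -0.22.

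Myc encodes the transcription factor that drives growth and metabolism after activation. It was at 399, 256, 205, 269 and 245 normalized counts in the WT and at 431, 295, 437, 363 and 343 in the Flcn KO. A single WT library, replicate 1, reached into the Flcn KO range, and the other WT libraries lay below all 5 Flcn KO libraries. The means were 274 ± 73.4 and 374 ± 60.2, a log2 fold change of 0.46 (SE 0.19, 95% interval 0.03 to 0.90), the largest in size among the members. Its adjusted p was 0.316 in limma, 0.0740 in edgeR and 0.0905 in DESeq2. Without WT replicate 1, the library with the high share of mitochondrial rRNA, the log2 fold change was 0.61 and the limma adjusted p 0.111.

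Nr4a1 and Nr4a3 are orphan nuclear receptors that limit effector responses and act in Treg development. Nr4a1 was at 173, 174, 171, 208 and 218 normalized counts in the WT and at 195, 149.9, 161, 113 and 139 in the Flcn KO. Flcn KO replicate 1 lay inside the WT range and the other 4 Flcn KO libraries lay below it. The means were 189 ± 22.7 and 152 ± 30.02, a log2 fold change of -0.33 (95% interval -0.69 to 0.03) with an adjusted p of 0.409 in limma and 0.205 in edgeR. Without WT replicate 1 it was -0.36. Nr4a3 was at 202, 159, 129.9, 184 and 146 normalized counts in the WT and at 179, 112, 159, 168 and 136 in the Flcn KO, with wide overlap. Its log2 fold change was -0.12, with a 95% interval of -0.51 to 0.27 and a limma adjusted p of 0.824. It rested on single libraries: it was -0.02 without Flcn KO replicate 2, -0.04 without WT replicate 1, -0.07 without WT replicate 4, -0.19 without Flcn KO replicate 1 and -0.20 without WT replicate 3. The family relative Nr4a2, named after its values were seen, was at 57.1 ± 22.6 in the WT and 27.8 ± 12.7 in the Flcn KO. Its log2 fold change was -1.07 (SE 0.39), with an adjusted p of 0.248 in limma, 0.0479 in edgeR and 0.0368 in DESeq2.

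Egr2 and Egr3 are zinc finger factors that act downstream of calcium and ERK signalling and restrain T cell activation. Egr2 was at 115, 126, 108, 113 and 152 normalized counts in the WT and at 190.3, 117, 187, 146 and 151 in the Flcn KO. WT replicate 5 lay among the Flcn KO libraries and Flcn KO replicate 2 among the WT libraries. The means were 123 ± 17.6 and 158 ± 30.8, a log2 fold change of 0.35 (95% interval -0.03 to 0.72) with an adjusted p of 0.399 in limma and 0.184 in edgeR. Without WT replicate 1 it was 0.33. Egr3 rested on 3 to 22 reads per library, and its coefficient of variation was 26.6% in the WT and 49.8% in the Flcn KO where counting alone gives 37.8% and 30.4%. No difference in Egr3 was detected on these few reads: its log2 fold change was 0.17 with a 95% interval of -0.58 to 0.91. It was 0.06 without WT replicate 1 and ran from -0.01 without Flcn KO replicate 5 to 0.43 without Flcn KO replicate 2. Egr1, named after its values were seen, was at 372 ± 23.8 and 355 ± 75.8, with a log2 fold change of -0.09 and a limma adjusted p of 0.867, and it ran from -0.17 without Flcn KO replicate 3 to -0.01 without Flcn KO replicate 2.

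Nfkbid and Tnfaip3 regulate NF-kB. Nfkbid encodes the nuclear IkB protein IkBNS, which is needed for Foxp3 induction, and Tnfaip3 encodes A20, a ubiquitin-editing enzyme that shuts the pathway down. Tnfaip3 was at 633, 592, 849, 802 and 752 normalized counts in the WT and at 675, 725, 628, 634 and 421 in the Flcn KO. Flcn KO replicate 5 was the lowest library, and the other 4 lay inside the WT range. Its log2 fold change was -0.24 (95% interval -0.64 to 0.15, limma adjusted p 0.605), -0.11 without Flcn KO replicate 5 and -0.29 without WT replicate 1. Nfkbid was at 81.7, 94.7, 102, 108 and 109 normalized counts in the WT and at 105, 111, 87.3, 69.4 and 88.5 in the Flcn KO, which overlapped. Its log2 fold change was -0.11 (95% interval -0.46 to 0.23, limma adjusted p 0.814), and it was -0.02 without Flcn KO replicate 4, -0.18 without Flcn KO replicate 2 and -0.18 without WT replicate 1.

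**Figure D2:**
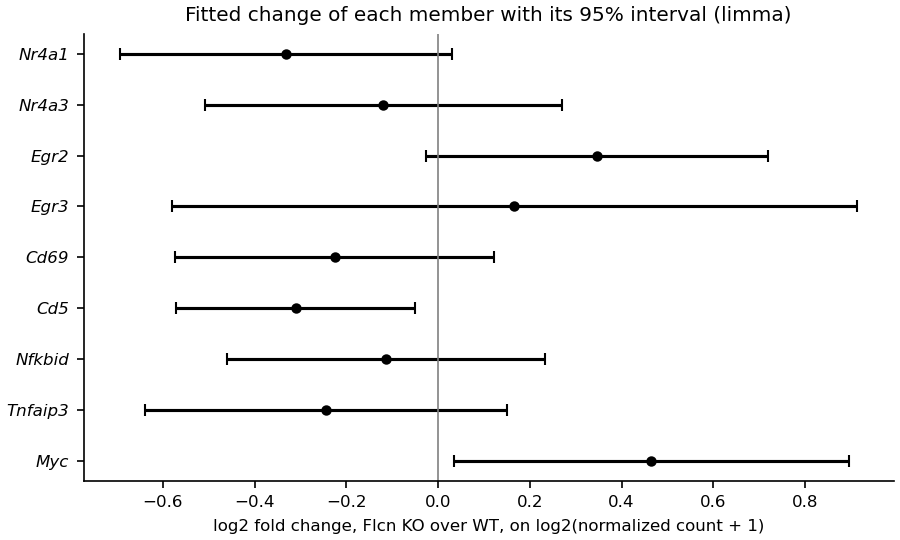
Log2 fold change of each member, Flcn KO over WT, from limma on log2(normalized count + 1), with its 95% interval. The intervals of Cd5 (-0.57 to -0.05) and Myc (0.03 to 0.90) leave out 0, and no member passed after adjustment over all genes.

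The members' log2 fold changes had both signs, so their ratios within a library were examined. Of the 36 ratios between members, 2 had groups that did not overlap. The same held for 7.75% of all ratios between 2 genes with a mean of at least 50 normalized counts, so this count is no more than the background. Egr3, at a mean of 8.10, lies below that limit, so its ratios are among the 36 but have no like in this background. The 2 ratios without overlap were picked out after their values were seen and carry no test. Nr4a1 over Egr2 was 1.51, 1.38, 1.58, 1.84 and 1.43 in the WT and 1.02, 1.29, 0.864, 0.776 and 0.921 in the Flcn KO. In every WT library Nr4a1 thus had more normalized counts than Egr2, and in 3 of 5 Flcn KO libraries it had fewer. Nr4a3 over Myc was 0.506, 0.621, 0.634, 0.684 and 0.597 in the WT and 0.416, 0.380, 0.365, 0.464 and 0.397 in the Flcn KO. In WT replicate 1, where Myc alone stood in the Flcn KO range, this ratio was the lowest of its group and still above all Flcn KO libraries.

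**Figure D3:**
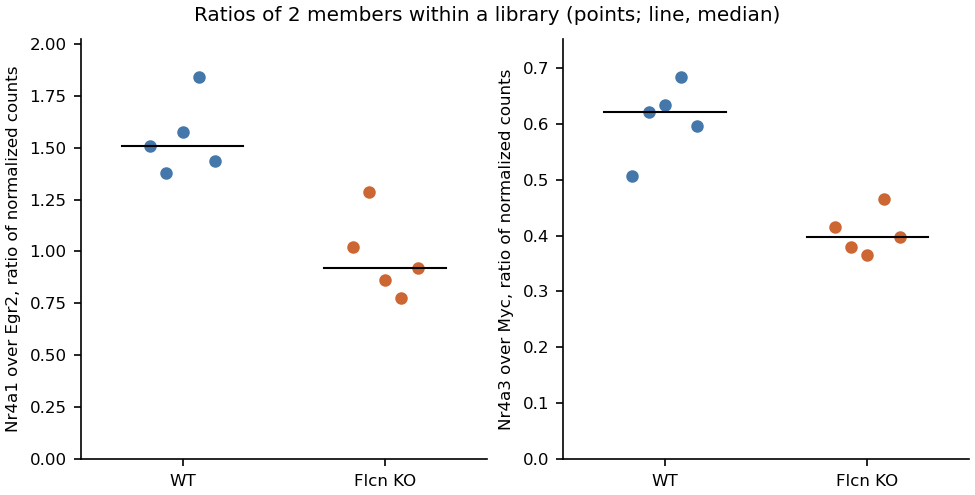
Ratio of normalized counts within each library for the 2 member pairs whose groups did not overlap, chosen after the values were seen. Nr4a1 over Egr2 has a median of 1.51 in the WT and 0.921 in the Flcn KO, and Nr4a3 over Myc has medians of 0.621 and 0.397.

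Libraries of a group also differed in the members as a set. The mean of the members' standardized deviations from their group means was 0.94, -0.30, 0.65, -0.73 and -0.56 in Flcn KO replicates 1 to 5 and lay between -0.29 and 0.40 in the WT. The summed level of 17 immediate early genes, transcripts such as Fos and Jun that also respond to handling of cells, was lowest in the same 2 Flcn KO libraries as the mean deviation. It was 7630 in replicate 1, 6715 in replicate 2, 6546 in replicate 3, 4151 in replicate 4 and 3834 in replicate 5, and between 5203 and 7430 in the WT (exact two-sided permutation p = 0.468 between groups). The lowest values of Nr4a1, Cd69 and Cd5 were in Flcn KO replicates 4 and 5. Among the Flcn KO libraries, Nr4a3, Egr2, Egr3 and Myc were instead lowest in replicate 2, and Egr3 was highest in replicate 5. The part of immediate early genes in these differences was not tested.

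Deviations from the group means were correlated between members over the 10 libraries, which share library and depth. Of 36 pairs 26 had a positive Pearson r, with a median of 0.238, and 7 exceeded 0.5. These shares were not computed over all gene pairs, so whether the members vary together more than other genes was not tested. The highest was between Nr4a3 and Myc at 0.870, followed by Nr4a1 with Nfkbid at 0.749, Nr4a1 with Cd5 at 0.720 and Egr2 with Egr3 at 0.699. Nr4a1 and Nr4a3, relatives in one family, had an r of 0.116. The lowest were Nr4a3 with Nfkbid at -0.495 and Nfkbid with Myc at -0.440. Among 5967 other genes with a mean of at least 50 normalized counts, those most like the members' mean deviation included Rpn1 (0.981), Spn (0.951), Igtp (0.933) and Eif1 (0.930). These are among the highest of 5967 values over 10 libraries, and how high such values run by chance was not tested. Rpn1 encodes an oligosaccharyltransferase subunit and Spn the surface sialoprotein CD43. Igtp encodes an interferon-induced GTPase and Eif1 a translation initiation factor.

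**Figure D4:**
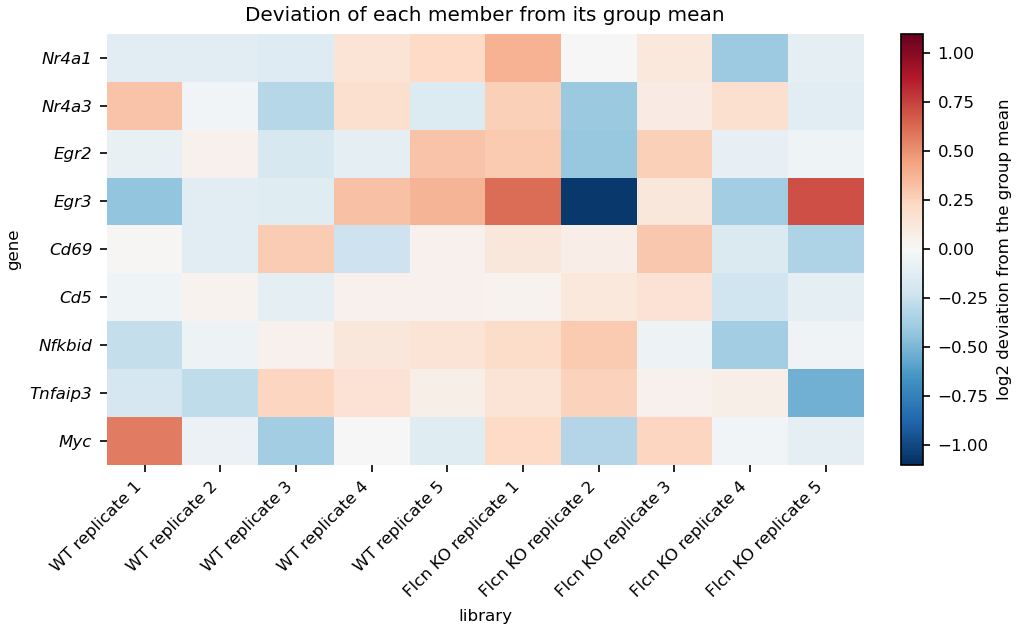
Deviation of each member from its group mean in each of the 10 libraries, on the log2(normalized count + 1) scale. Flcn KO replicate 1 stands above its group mean for most members and Flcn KO replicates 4 and 5 below it for most.

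Other genes of the pathway were read from 8 lists that hold 138 genes, of which 135 were tested. Of these 2 rose and 3 fell in limma, beside 1.71% of all genes called. With edgeR 8 were called higher and 10 lower of 134, beside 5.64% of all genes called. The median log2 fold change of the 135 was -0.03. All 5 limma calls were lost when replicate number was added as a block, with adjusted p between 0.0520 and 0.191, and 27 of the 135 then had an unadjusted p under 0.05, as did 13.3% of all genes. Over all genes this block cut the calls from 252 to 59, and replicate numbers did not pair the libraries.

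Calcium and NFAT targets and partners of Egr factors held 3 of the 5 limma calls. Of these 18 genes 1 was higher and 2 were lower, where 1.71% of all genes were called. At an unadjusted p under 0.05, 2 were higher and 5 lower, where 7.16% and 6.88% of all genes were. In edgeR 1 was higher and 4 were lower, where 5.64% of all genes were called. Bhlhe40, a basic helix-loop-helix repressor induced by receptor signalling, was at 209, 216, 329.8, 252 and 333 normalized counts in the WT and at 619.9, 513, 588, 516 and 559 in the Flcn KO. Every Flcn KO library was above every WT library, with a log2 fold change of 1.08 (SE 0.17, limma adjusted p 0.0127). Tox2, an HMG-box factor of the Tox family, fell from 19.8 ± 4.56 to 5.86 ± 1.17 (log2 fold change -1.59, SE 0.20, limma adjusted p 0.00476). Its relative Tox fell from 631 ± 66.3 to 425 ± 31.2 (-0.57, SE 0.12, limma adjusted p 0.0466). The Tox call was lost in each of the 10 fits that left out 1 library, with adjusted p from 0.0679 to 0.124, and the calls of Bhlhe40, Tox2, Tnfaip8 and Cdk4 were kept in all 10.

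Of 25 NF-kB subunits, inhibitors and targets, 1 fell in limma, where 1.71% of all genes were called. That was Tnfaip8, a TNF-induced regulator of cell death, from 225 ± 33.2 to 114 ± 15.4 (log2 fold change -0.97, SE 0.15, limma adjusted p 0.0125). In edgeR 1 was higher and 3 were lower, where 5.64% of all genes were called. Nfkbiz, which encodes a nuclear IkB protein related to that of Nfkbid and was named after its values were seen, had no overlap between groups. It was at 699 ± 37.9 in the WT and 960.03 ± 101 in the Flcn KO (log2 fold change 0.45, SE 0.12), with an adjusted p of 0.111 in limma and 0.00464 in edgeR. The others that edgeR called lower, Traf1 and Relb, were also named after their values were seen. Traf1 had no overlap either (-0.46, SE 0.12), with an adjusted p of 0.113 in limma and 0.00583 in edgeR. Relb overlapped (-0.94, SE 0.24), with an adjusted p of 0.107 in limma and 0.0302 in edgeR. The median of the list was -0.10 and 16 of 25 log2 fold changes were negative. Among 8 feedback inhibitors of ERK and related kinases none was called in limma. At an unadjusted p under 0.05 there was 1, beside 14.0% of all genes, and edgeR called 1, beside 5.64% of all genes. Dusp10, a phosphatase that acts on p38 and JNK, had no overlap between groups, at 184 ± 12.6 in the WT and 257 ± 13.4 in the Flcn KO, with an adjusted p of 0.0570 in limma and 0.00596 in edgeR. Dusp5, which acts on ERK, was at 48.4 and 39.4 (-0.28, limma adjusted p 0.546), and its log2 fold change was -0.16 without WT replicate 4.

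None of 12 activation-induced surface proteins was called in limma. At an unadjusted p under 0.05 there were 3, beside 14.0% of all genes, and edgeR called 2, beside 5.64% of all genes. Slc7a5, the light chain of a large amino acid transporter, was at 44.9 ± 12.0 in the WT and 84.7 ± 18.6 in the Flcn KO (log2 fold change 0.92, SE 0.24), with an adjusted p of 0.101 in limma and 0.0086 in edgeR. Without WT replicate 1, the lowest library, it was 0.73. Tnfrsf9, the costimulatory receptor 4-1BB, was at 243 ± 45.5 and 168 ± 28.5 (-0.52, SE 0.17), with an adjusted p of 0.201 in limma and 0.0202 in edgeR. Of 17 immediate early genes 12 had a negative log2 fold change, with a list median of -0.27. None was called in limma, nor in edgeR, which tested 16 of them. In limma 2 had an unadjusted p under 0.05, where 14.0% of all genes did. Atf3, a stress-induced factor, was at 3.61 ± 2.42 and 0.569 ± 0.555, and Fosl2, an AP-1 subunit, at 92.1 ± 17.0 and 62.3 ± 13.0. Their limma adjusted p were 0.134 and 0.243. Atf3 was not tested in edgeR and lay near the floor, at 0 to 1.11 normalized counts in the Flcn KO libraries.

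Of 25 Myc target genes 23 had a log2 fold change above 0, beside 7448 of all 14723 tested genes, and the median was 0.34. Like the others, this list was chosen with earlier results of these data known, so its counts are description and no test. At an unadjusted p under 0.05, 11 were higher where 7.16% of all genes were. At the same p 1 was lower, where 6.88% of all genes were. A single target passed adjustment in limma, beside 1.71% of all genes, and edgeR called 3 higher and 1 lower, beside 5.64% of all genes. Cdk4, a cyclin-dependent kinase of early cell cycle, rose from 62.6 ± 7.74 to 129 ± 5.45 (log2 fold change 1.04, SE 0.12, limma adjusted p 0.00289). Among 8 partners and antagonists of Myc none was called in limma. At an unadjusted p under 0.05 there were 3, beside 14.0% of all genes. In edgeR 1 was called in each direction, beside 5.64% of all genes called. Mnt, a Max-binding repressor, was at 74.1 ± 17.5 in the WT and 116 ± 15.4 in the Flcn KO, with an adjusted p of 0.118 in limma and 0.0205 in edgeR. Mxd4, another repressor that pairs with Max, was at 276 ± 30.1 and 195 ± 29.9, with an adjusted p of 0.131 in limma and 0.0111 in edgeR.

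The receptor machinery itself gave no call in the main limma test or in edgeR among 22 proximal genes. In the main limma test 2 of them had an unadjusted p under 0.05, where 14.0% of all genes did. Cd3g, a signalling chain of the receptor complex, was at 423 ± 29.4 in the WT and 337 ± 34.4 in the Flcn KO (-0.33, limma adjusted p 0.247). Ptprc, the phosphatase CD45, was at 9217 ± 656 and 7339 ± 861 (-0.33, limma adjusted p 0.257). DESeq2 called both Cd3g and Ptprc, where it called 4.93% of all genes, and limma with a trended, robust variance called Ptprc. The authors' deposited adjusted p were 0.0295 for Cd3g and 0.00902 for Ptprc.

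**Figure D5:**
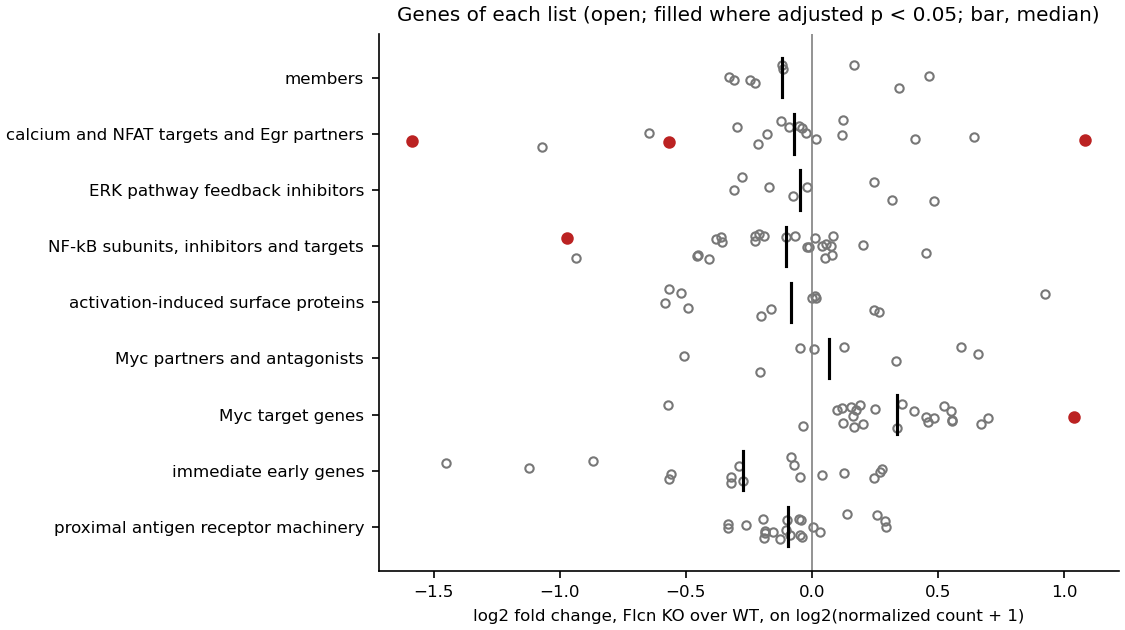
Log2 fold change, Flcn KO over WT, of every tested gene in the 8 pathway lists and of the members, with the median of each list as a bar and genes past an adjusted p of 0.05 in limma filled. Myc target genes have a median of 0.34 and immediate early genes of -0.27. The lists were chosen with earlier results of these data known.

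Markers of other cells that could enter the sort summed to far less than Treg markers. The summed level of B cell markers, 12 of 14 present, was 126 to 186 normalized counts in the WT and 131 to 320.5 in the Flcn KO (exact two-sided permutation p = 0.119). Myeloid and dendritic markers, 14 of 16 present, summed to 157 to 410.1 and 263 to 627 (exact p = 0.159), with Adgre1, S100a8 and Clec9a at 0 in some libraries, as was Blk among the B cell markers. None of these markers was called in limma. However, 11 of the 12 B cell markers and 13 of the 14 myeloid markers had a log2 fold change above 0, beside 7448 of all 14723 tested genes. The B cell and myeloid medians were 0.44 and 0.69, beside 0.003 over all tested genes. At an unadjusted p under 0.05, 2 of the B cell and 5 of the myeloid markers were higher, where 7.16% of all genes were. edgeR called 0 of 8 tested B cell markers and 1 of 9 tested myeloid markers, against 5.64% of genes. CD8 T and NK markers, 3 of 6 present, summed to 35.6 to 69.4 and 38.9 to 50.8, and erythroid and platelet markers, 3 of 10 present, to 17.3 to 38.2 and 19.98 to 55.5. Treg markers summed to 10983 to 12457 in the WT and 10092 to 11177 in the Flcn KO (exact p = 0.0238), a sum of markers that did not move together. Il2ra rose from 2184 ± 156 to 3228 ± 138 (log2 fold change 0.56, limma adjusted p 0.0292) and Ikzf2 fell from 3999.99 ± 301 to 2732 ± 77.6 (-0.55, limma adjusted p 0.0336). Ctla4 was at 1261 ± 143 and 879 ± 113 (-0.52), with an adjusted p of 0.106 in limma and 0.0027 in edgeR. B cells and myeloid cells also express Myc, Cd69, Egr2 and Tnfaip3, and the part of these cells in the members' values was not tested.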

How the data were processed

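RNA of 10 libraries was analysed, 5 WT and 5 Flcn KO, grouped by the genotype in the labels. Extraction used an RNeasy micro column and cDNA a NuGEN low-input chemistry, per the labels' protocols. The submitters' processing notes name Trimmomatic 0.36, STAR 2.5.3a, RSEM 1.3.1, DESeq2 1.24.0 and the mm9 genome, with no role or order given. The deposited table gives, per gene, a signal in each library that is read here as normalized counts, together with the authors' log2 fold change and standard error. It also holds a deposited score (the Wald statistic) and deposited p-values, raw and adjusted.

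In each library 100% of values were whole multiples of 1 step, within 0.01 reads. That step, the worth of 1 read, was 0.628 to 1.27 normalized counts. Size factors recomputed from the recovered reads differed from these steps by at most 0.0238%. The table holds genes with a mean of at least 2.02, so depth per library refers to those genes. No other per-sample columns were present.

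The main test was limma 3.58.1 in R 4.3.3 on log2(normalized count + 1), with genotype as the only term, over 14723 genes with at least 1 normalized count in at least 5 libraries, Benjamini-Hochberg adjustment and a threshold of 0.05. A fold change on this scale understates the change of low genes. edgeR 4.0.16 (quasi-likelihood) and DESeq2 1.42.0 on the recovered reads were alternatives. Values of single libraries were compared by exact permutation of all 252 splits. Confidence intervals are 95%, and Poisson spreads cover counting error only. The members and gene lists were chosen with earlier results of these data known. Genes named were all members, every called gene of a pathway list with at most 5 calls, the 2 of smallest p in a list with none, and the 5 genes most like the members' mean deviation, of which 1 is not reported here. Promoter sequences and starts are from RefSeq and lengths from GENCODE vM21, both on GRCm38 and not the build of the reads, so no coordinate was carried between them. No pair of libraries in a group held the same counts within sampling noise (chi-square per degree of freedom 2.24 to 35.0). Pairs with WT replicate 1 were at 27.9 to 35.0, and the other WT pairs at 2.24 to 3.54. WT replicate 1 also had 807 genes at 0, where the other WT libraries had 117 to 378.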

Additional observations from a re-analysis of the deposited data

Results flagged for a closer look

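Of 36 groups of 5 values checked for a library far from the others, 1 stood out: mitochondrial rRNA took 44.1% of reads in WT replicate 1, and the gap to the next WT library was 0.903 of the group's range. Chance alone flags about 1 group in 20. None of the 18 groups of member values held such a library. Without WT replicate 1 the log2 fold change was 0.61 for Myc, -0.32 for Cd5, -0.36 for Nr4a1 and 0.33 for Egr2, and no member passed the threshold in limma.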

How the results depend on the processing

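The number of genes called was 252. It was 598 with a trended, robust variance, 592 in edgeR, 727 in DESeq2 and 59 with a replicate block. Leaving out 1 library gave 122 (without WT replicate 3) to 217 (without WT replicate 1), and the count fell by more than 1.5 times without each library other than WT replicate 1 and Flcn KO replicate 3. No member was called in limma under any of its settings, and DESeq2 called 1, Cd5. The 5 other pathway genes called became 16 with the trended, robust variance, where 598 of all genes were called. They became 18 in edgeR, against 5.64% of all genes, and 22 in DESeq2, against 4.93%. With the replicate block they became 0, and 27 had an unadjusted p under 0.05 beside 13.3% of all genes. Single members kept their direction in 168 of 169 values under the 19 alternatives. The exception was Egr3, at -0.01 without Flcn KO replicate 5. Egr3 was not tested in edgeR or with a mean filter of 10. The adjusted p ranged from 0.0285 to 0.427 for Cd5, 0.0733 to 0.488 for Myc and 0.205 to 0.570 for Nr4a1. Replicate numbers did not pair the libraries: deviations of same-numbered libraries correlated at 0.00923 to 0.0325, and of these libraries WT replicate 1 alone matched its own number best. Egr3 rested on 3 to 22 reads per library. The causes of these shifts were not tested.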
